A study of Mus musculus with 6 samples.

Results

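The nuclear-encoded genes of the mitochondrial respiratory chain were examined in mouse CD8 T cells activated in the presence of basophil supernatant. Members were chosen by symbol: protein-coding genes starting with Nduf, Uqcr, Atp5 or Cox4 to Cox8, together with Sdha, Sdhb, Sdhc, Sdhd, Cyc1 and Cycs. This rule found 95 of the 46517 genes in the tables. They comprised 36 subunits of complex I, 4 of complex II, 9 of complex III, 20 of complex IV and 16 of complex V, and 10 further genes. The further genes were 8 assembly factors of complex I with Nduf symbols, cytochrome c (Cycs) and factor B (Atp5s). Ndufa4 was counted with complex IV, where its protein is now placed. A further 11 genes with these symbol starts were annotated as pseudogenes and left out.

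There were 3 libraries of CD8 T cells given supernatant of basophils kept with IL-3 (IL-3 supernatant) and 3 of CD8 T cells given supernatant of basophils kept with PBS (PBS supernatant). All T cells came from spleens and lymph nodes of C57BL/6J mice as naive cells and were activated over 3 days through CD3 and CD28, with IL-2 at 100 units/mL, and the supernatant was present between day 1 and day 2. Sorted basophils had conditioned it for 2 days in medium with IL-2 at 100 units/mL, with 3 ng/mL of IL-3 or with PBS in its place, so the groups differ in what the basophils received, and IL-3 itself and basophil products cannot be told apart here. Poly(A) RNA was sequenced, with 17377052 to 22174902 expected counts per library. Whether replicates are separate mice or cultures is not stated, so the p-values reflect the spread among the 6 libraries, which may be technical.

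The respiratory chain passes electrons from NADH through complex I, or from succinate through complex II, to coenzyme Q, then through complex III and cytochrome c to complex IV, which reduces oxygen. Complexes I, III and IV pump protons across the inner mitochondrial membrane, and complex V, the ATP synthase, uses that gradient to make ATP. Subunits of complexes I, III, IV and V come from both the nuclear and the mitochondrial genome, whereas all subunits of complex II are nuclear-encoded. Activated CD8 T cells are known to enlarge their mitochondrial mass and respiration alongside glycolysis while they grow and divide.

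The nuclear-encoded respiratory chain differed by small amounts between IL-3 and PBS supernatant. Of the 88 members with enough counts to test, 10 (11.4%) had an adjusted p under 0.05 by the quasi-likelihood test of edgeR, with Benjamini-Hochberg adjustment, beside 30.9% of all 12407 genes tested. Cycs and Uqcrq were higher with IL-3 supernatant, beside 14.8% of all genes called higher. Ndufv3, Ndufaf3, Ndufaf6, Atp5k, Atp5mpl, Cox7a2l, Sdhb and Atp5g2 were lower, beside 16.1% of all genes called lower. None of these 10 differed by as much as 1.5-fold. Values of the groups did not overlap in 17 of the 88 (19.3%), beside 43.6% of all genes tested. An unadjusted p under 0.05 was found for 13 of the 88, beside 4953 of the 12407 genes tested. The low share of calls did not hold without PBS supernatant replicate 1, where 29.2% of the members were called, beside 31.6% of all genes. With any other library left out the share was 4.49% to 6.82%, beside 24.1% to 26.1% of all genes.

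The differences were also tight. The median log2 fold change (IL-3 minus PBS supernatant) was -0.04 over the members, with an interquartile range of -0.11 to 0.03, beside a median of -0.00 and a range of -0.21 to 0.19 over all genes tested. The median size of the log2 difference, whatever its sign, was 0.09 in members and 0.20 in all genes tested. For 63 of the 88 members (71.6%) the 95% interval of the log2 fold change lay wholly within 0.32 either way on the log2 scale, beside 32.6% of all genes tested. Of the lists described below, the share was 70.5% in mitochondrial ribosomal proteins, 70.4% in protein import, 77.8% in the TCA list and 81.8% in metabolite transport. It was 63.6% in biogenesis regulators, 39.0% in assembly factors without Nduf symbols, 30.8% in coenzyme Q synthesis and 0.0% in mitochondrially encoded subunits. A difference of 2-fold or more was found for 1 member, Cox6b2, which did not pass the test, beside 9.34% of all genes tested. Members were well expressed, and well-expressed genes are measured more precisely. Among the 7421 genes with an average log2 CPM (counts scaled to library size) of at least 4, 9.76% of the 82 members and 34.3% of all genes passed. At that level 76.8% of members and 52.9% of all genes had intervals within 0.32 either way, a smaller contrast than without the cut. The median size of the log2 difference was 0.08 in those members and 0.14 in all those genes. Differences of 2-fold or more came to 0.0% and 3.22%.

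**Figure D1:**
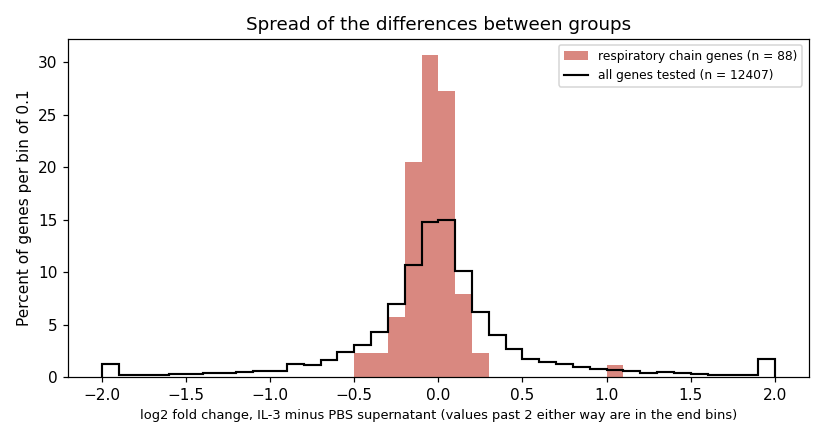
Percent of genes (y axis) in bins of the log2 fold change, IL-3 minus PBS supernatant (x axis, bin width 0.1), for the 88 respiratory chain genes (filled) and all 12407 genes tested (line). The respiratory chain genes crowd around a median of -0.04, and the line for all genes is lower and wider.

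PBS supernatant replicate 1 stood apart in these genes, though not in these alone. It held the lowest value of its group in 75 of the 88 members, whereas it was lowest of its group in 38.6% of all genes tested. In CPM it was also lowest of its group in most of the mitochondrial ribosomal proteins and protein import genes described below. Median transcript length was 622 bases in members and 1383.5 bases in all genes tested, and whether length plays a part was not tested. The median deviation of members from their mean over the 6 libraries was -0.02, -0.03 and 0.02 on the log2 scale in IL-3 replicates 1, 2 and 3, against -0.12, 0.06 and 0.10 in PBS replicates 1, 2 and 3. Without PBS replicate 1, 24 of 89 members passed as lower, which is 27.0% beside 16.5% of all genes called lower in that fit. The 2 members higher there were 2.25%, beside 15.05% of all genes. All 10 of the members called with every library were called there too. Leaving out one other library left 4 lower calls without IL-3 replicate 1, 2 or 3, 2 without PBS replicate 2 and 3 without PBS replicate 3. These were 2.247% to 4.545% of members, beside 12.5% to 13.2% of all genes called lower in those fits. The members took 1.07%, 1.05% and 1.11% of the counts of IL-3 replicates 1, 2 and 3, and 0.994%, 1.07% and 1.13% of those of PBS replicates 1, 2 and 3.

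**Figure D2:**
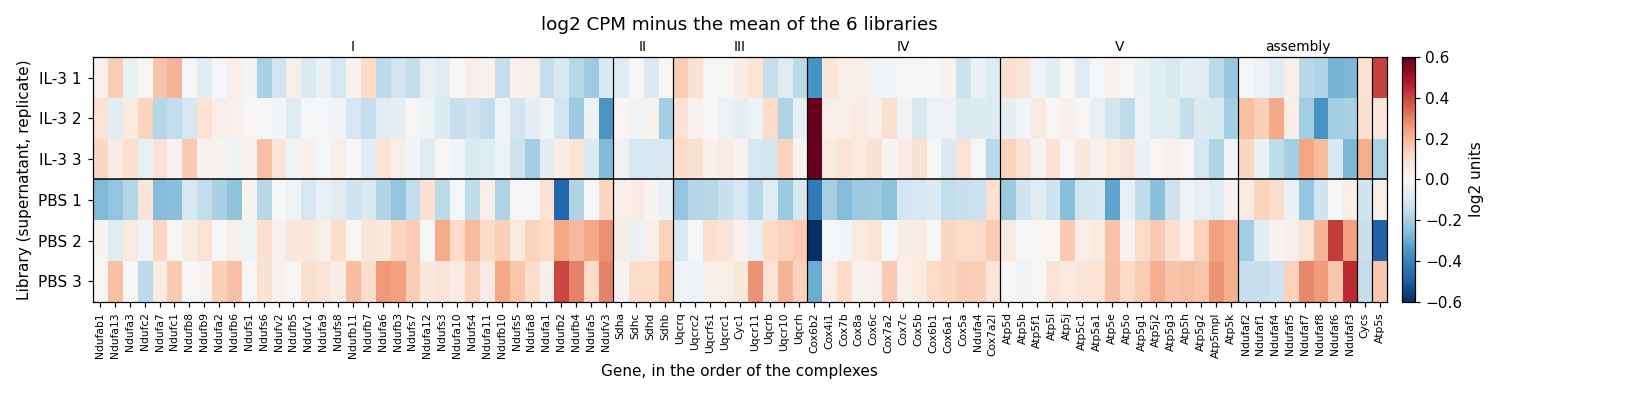
Each column is 1 of 87 of the 88 tested genes in the order of the complexes, each row is a library, and colour gives log2 CPM minus the mean of the 6 libraries (red above, blue below). The row of PBS replicate 1 is blue for most genes, and the same genes are mostly red in PBS replicates 2 and 3.

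**Figure D3:**
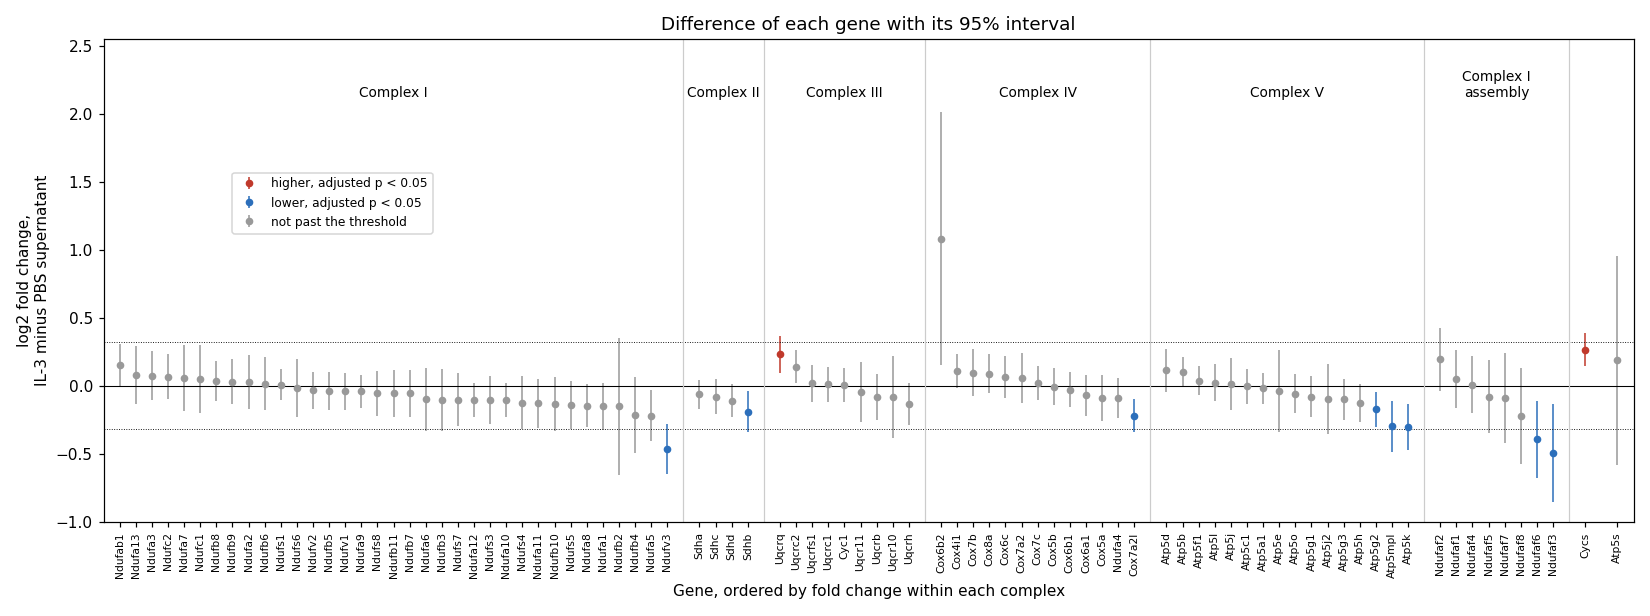
Log2 fold change of 87 of the 88 tested genes, IL-3 minus PBS supernatant (y axis), with its 95% interval (bars), by complex (x axis). Dotted lines mark 0.32 either way, and the 2 genes past the threshold as higher are red and the 8 as lower blue.

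Promoters are shown for the 3 called members that hold the NRF-1 or CRE letters, recognition motifs of factors known to act on respiratory genes. NRF-1 and ETS factors of the GABP kind bind many such promoters, and cytochrome c promoters in the rat are known to bind CREB and NRF-1. Sequences are from RefSeq (GRCm38.p6), 250 bases before to 30 after the start, which was matched for 75 of the 95 members and 7 of the 10 called. Capitals mark the motif, and each line reads 5′ to 3′ along the minus strand. Cycs lies at chr6:50566540-50566819, with the CRE letters TGACGTCA starting 169 bases before the start. Atp5k lies at chr5:108434370-108434649, with the NRF-1 letters starting 50 bases before the start and the ETS letters at base 12 after it. Atp5g2 lies at chr15:102671018-102671297, with the NRF-1 letters starting 42 bases before the start. That window lies inside the gene's annotated span of 102662864 to 102672352, so the start used is not the outermost one.
Cycs: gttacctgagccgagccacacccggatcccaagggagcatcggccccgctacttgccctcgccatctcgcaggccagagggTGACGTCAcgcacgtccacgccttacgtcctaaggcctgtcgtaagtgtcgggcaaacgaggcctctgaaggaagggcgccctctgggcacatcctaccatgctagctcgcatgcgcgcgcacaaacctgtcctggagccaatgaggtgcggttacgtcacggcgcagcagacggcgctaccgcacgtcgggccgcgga
Atp5k: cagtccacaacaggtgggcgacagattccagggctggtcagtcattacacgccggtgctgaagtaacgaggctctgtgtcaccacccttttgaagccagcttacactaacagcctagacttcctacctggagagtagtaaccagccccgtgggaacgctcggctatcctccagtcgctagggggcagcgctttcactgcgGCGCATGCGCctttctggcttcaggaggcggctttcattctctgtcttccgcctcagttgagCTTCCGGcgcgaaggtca
Atp5g2: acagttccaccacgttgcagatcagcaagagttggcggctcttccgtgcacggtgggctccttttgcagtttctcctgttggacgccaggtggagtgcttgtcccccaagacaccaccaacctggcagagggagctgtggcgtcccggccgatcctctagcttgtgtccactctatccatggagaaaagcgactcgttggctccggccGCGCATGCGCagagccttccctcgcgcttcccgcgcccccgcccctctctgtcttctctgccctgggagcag

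The NRF-1 letters searched on both strands were GCGC, any 2 bases and GCGC again, a pattern that reads the same on both. They were found in 20 of the 75 promoters (26.7%), beside 6.63% of all 27025 promoters and 15.1% of the 9155 promoters of genes tested. The ETS letters CCGGAAG were in 24.0% of members, beside 9.48% of all and 21.02% of tested genes. The CRE letters TGACGTCA were in 6.67% of members (Cycs, Ndufa10, Ndufa11, Ndufb2 and Uqcrfs1), beside 1.99% of all and 3.67% of tested genes, and the YY1 letters AAGATGGC in 5.33%, beside 2.66% and 4.40%. None of these 4 patterns contains another. Of the 7 called members with a promoter, 2 held the NRF-1 letters (Atp5k and Atp5g2, both lower), 2 the ETS letters (Atp5k and Sdhb, both lower) and 1 the CRE letters (Cycs, higher). A match of letters does not show that a factor binds there.

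Complex I, the NADH dehydrogenase and the largest complex of the chain, had 1 call among 36 subunits (2.78%, beside 30.9% of all genes tested). The 7 nuclear-encoded core subunits, which hold the flavin and the iron-sulfur clusters that carry the electrons, had 0 calls, with 0 at an unadjusted p under 0.05 and 0 by DESeq2 or limma-voom, and all 7 intervals lay within 0.32 of 0 on the log2 scale. Without PBS replicate 1 the core subunit Ndufs3 passed, at log2 -0.20 (edgeR adjusted p = 0.0303). Ndufs1, the largest core subunit, averaged 136 ± 1.72 CPM with IL-3 supernatant and 136 ± 2.01 CPM with PBS supernatant (SD, n = 3 each), an interval of -0.10 to 0.12 for the log2 fold change. Ndufv1, which holds the flavin that takes electrons from NADH, averaged 102 ± 4.06 CPM with IL-3 supernatant and 104 ± 7.52 CPM with PBS supernatant. Ndufv1 did not pass (edgeR adjusted p = 0.699).

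Ndufv3 was the single complex I subunit past the threshold. It encodes a small accessory subunit of the NADH-oxidising arm (ENSMUSG00000024038, chromosome 17, 31520115 to 31531331, GRCm38). It stood at 39.9, 33.3 and 35.4 CPM in IL-3 replicates 1, 2 and 3, against 46.5, 51.4 and 52.2 CPM in PBS replicates 1, 2 and 3. Every IL-3 library lay below every PBS library. Its log2 fold change came to -0.47 (SE 0.09, edgeR adjusted p = 0.00047), a level 27.6% lower. Ndufv1 and Ndufv2, which sit in the same arm, each had log2 -0.04 and did not pass. The other accessory subunits ranged from -0.22 (Ndufa5, edgeR adjusted p = 0.0712) to 0.15 (Ndufab1, the mitochondrial acyl carrier protein, edgeR adjusted p = 0.129). The widest interval in the complex was that of Ndufb2, -0.66 to 0.35, whose values spread from 16.4 CPM in PBS replicate 1 to 29.99 CPM in PBS replicate 3.

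Ndufaf3 and Ndufaf6 were the 2 lowest of the 8 assembly factors of complex I with Nduf symbols and the 2 that passed (beside 16.1% of all genes called lower). Assembly factors help build the complex and are not part of it. Ndufaf3 (ENSMUSG00000070283, chromosome 9, 108565537 to 108567434), which acts with Ndufaf4 early in assembly, stood at 4.995, 5.27 and 5.00 CPM in IL-3 replicates 1, 2 and 3, against 6.18, 7.15 and 8.21 CPM in PBS replicates 1, 2 and 3. Ndufaf6 (ENSMUSG00000050323, chromosome 4, 11051045 to 11076205), a factor of the same early steps, stood at 9.53, 10.0 and 10.9 CPM in the IL-3 libraries, against 11.6, 15.5 and 12.9 CPM in the PBS libraries. For both genes the groups did not overlap. Ndufaf3 had log2 -0.49 (SE 0.17, edgeR adjusted p = 0.0364) and Ndufaf6 -0.40 (SE 0.13, edgeR adjusted p = 0.0347). Ndufaf4 itself had log2 0.01, and the other uncalled factors lay between -0.22 (Ndufaf8) and 0.19 (Ndufaf2). The Ndufaf3 call was lost without any one of the IL-3 libraries or PBS replicate 2 or 3 (adjusted p from 0.072 to 0.172), and that of Ndufaf6 without IL-3 replicate 1 or 2 or PBS replicate 2 or 3 (adjusted p from 0.0648 to 0.217). By DESeq2 neither passed, with adjusted p of 0.118 for Ndufaf3 and 0.102 for Ndufaf6.

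Complex II is the succinate dehydrogenase, which also catalyses a step of the TCA cycle. All 4 of its subunits had log2 fold changes below 0, as did 6302 of all 12407 genes tested. Of the 4 subunits 1 was called, as lower, beside 16.1% of all genes called lower. Sdhb, the iron-sulfur subunit (ENSMUSG00000009863, chromosome 4, 140961203 to 140979193), stood at 119, 103 and 111 CPM in IL-3 replicates 1, 2 and 3, against 115, 130 and 135 CPM in PBS replicates 1, 2 and 3. The groups overlapped, because IL-3 replicate 1 lay above PBS replicate 1. Sdhb had log2 -0.19 (SE 0.07, edgeR adjusted p = 0.0491), close to the threshold. The flavoprotein Sdha averaged 278 ± 8.61 CPM with IL-3 supernatant and 291 ± 2.86 CPM with PBS supernatant, without overlap but not past the threshold (log2 -0.06, edgeR adjusted p = 0.367). The membrane anchors Sdhc and Sdhd had log2 -0.08 and -0.11. Summed over the 4 genes, deposited TPM (transcript abundance scaled for length and library) came to 649, 658 and 649 in the IL-3 libraries, against 700, 675 and 722 in the PBS libraries. The groups did not overlap in this sum, and its mean differed by -6.71%, or by between -8.30% and -5.13% with one library left out. The Sdhb call was lost without IL-3 replicate 2 or 3 or PBS replicate 2 or 3 (adjusted p from 0.127 to 0.245), and under 13 of the 18 alternatives in all.

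Complex III, which hands electrons from coenzyme Q to cytochrome c, had 1 call among 9 subunits (11.1%, beside 30.9% of all genes tested). Uqcrq, a small subunit near the site that binds coenzyme Q (ENSMUSG00000044894, chromosome 11, 53427922 to 53430831), stood at 103, 98.8 and 101 CPM in IL-3 replicates 1, 2 and 3, against 79.0, 87.6 and 91.6 CPM in PBS replicates 1, 2 and 3. Every IL-3 library lay above every PBS library, and the IL-3 values were close together. On the log2 scale Uqcrq differed by 0.23 (SE 0.06, edgeR adjusted p = 0.0106), a level 17.3% higher. Without IL-3 replicate 1 the adjusted p was 0.0518. The catalytic subunits did not pass: Cyc1, cytochrome c1, averaged 144 ± 5.15 CPM with IL-3 supernatant and 143 ± 9.02 CPM with PBS supernatant, and Uqcrfs1, the Rieske iron-sulfur protein, 171 ± 2.25 CPM with IL-3 supernatant and 169 ± 15.8 CPM with PBS supernatant. The core protein Uqcrc1 had log2 0.01 with an interval of -0.12 to 0.14. The core protein Uqcrc2 was without overlap between groups at log2 0.14 (edgeR adjusted p = 0.0789), and the lowest subunit was the hinge protein Uqcrh, at -0.13 (edgeR adjusted p = 0.176).

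Cycs, the mobile carrier that takes electrons from complex III to complex IV and that triggers the apoptosome when released into the cytosol, was the member with the highest fold change among those called. Cycs (ENSMUSG00000063694, chromosome 6, 50562563 to 50566538) stood at 148, 149 and 162 CPM in IL-3 replicates 1, 2 and 3, against 128, 127 and 127 CPM in PBS replicates 1, 2 and 3. The groups did not overlap, and PBS replicate 1, low for most members, lay level with the other PBS libraries here. Its promoter is the one printed with the CRE letters. Its log2 difference was 0.27 (SE 0.06, edgeR adjusted p = 0.00162), a level 20.2% higher, and the call held under 17 of the 18 alternatives.

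**Figure D4:**
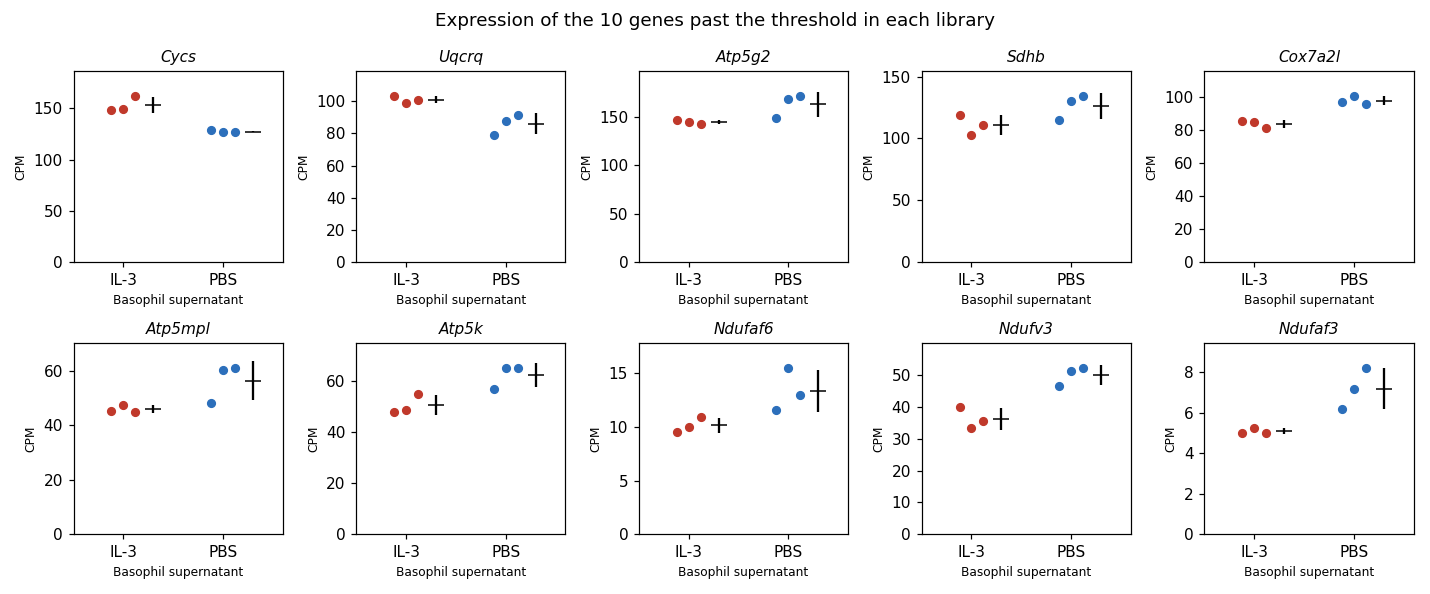
CPM of each of the 10 genes past the threshold (y axis from 0) in the 3 libraries with IL-3 and the 3 with PBS supernatant (points), with the mean and SD of each group (black). Cycs and Uqcrq lie higher with IL-3 supernatant and the other 8 lower, and in Sdhb the points of the groups overlap.

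Complex IV, cytochrome c oxidase, had 1 call among the 13 subunits tested (7.69%, beside 30.9% of all genes tested). Cox7a2l (ENSMUSG00000024248, chromosome 17, 83501918 to 83517330) encodes a protein related to subunit 7a. The protein is known for joining complexes III and IV into supercomplexes, but C57BL/6J mice carry a shorter form, and joining was not measured here. Cox7a2l stood at 85.4, 85.1 and 80.9 CPM in IL-3 replicates 1, 2 and 3, against 96.9, 101 and 95.6 CPM in PBS replicates 1, 2 and 3. The libraries were close within each group and did not overlap between groups. Cox7a2l had log2 -0.22 (SE 0.06, edgeR adjusted p = 0.00677), or an adjusted p of 0.0533 with PBS replicate 2 left out. Cox4i1, a regulatory subunit, averaged 253 ± 3.2 CPM with IL-3 supernatant and 235 ± 20.0 CPM with PBS supernatant (log2 0.11, edgeR adjusted p = 0.203). Cox5a, which contacts it, averaged 133 ± 10.6 CPM with IL-3 supernatant and 141 ± 14.6 CPM with PBS supernatant (log2 -0.09, edgeR adjusted p = 0.441). Among the 12 uncalled subunits the lowest was Ndufa4, at log2 -0.09.

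Several subunits of complex IV come as pairs or triplets of genes with tissue-specific forms, and these cells used mainly the widely expressed form. Cox4i1, Cox7b, Cox8a and Ndufa4 held at least 99.9% of the TPM of their families in every library. Cox6a1 held 99.4% to 100.0% of subunit 6a, and Cox6b1 98.5% to 99.5% of subunit 6b. The subunit 7a family was counted with the related gene Cox7a2l. Cox7a2 took 62.0% ± 1.12 of the family's TPM with IL-3 supernatant and 57.1% ± 3.37 with PBS supernatant. Cox7a2l took 37.6% ± 1.08 with IL-3 supernatant and 42.3% ± 3.66 with PBS supernatant, and the muscle form Cox7a1 the remainder. The share of Cox7a2l lay between 36.9% and 38.8% in the IL-3 libraries, against 38.5% to 45.8% in the PBS libraries, so the groups overlapped. Cox7a2 itself had log2 0.06 (edgeR adjusted p = 0.679).

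The 7 members below the count filter were all such minor forms. Cox7b2, Cox8b and Cox8c had 0 counts in every library, which allows up to 0.135 to 0.173 CPM per library (3 counts, counting error only). Cox4i2, the lung form, had 2 counts in the IL-3 libraries together and 0 in the PBS libraries together. Ndufa4l2, a relative of Ndufa4, had 2 counts with IL-3 supernatant and 1 with PBS supernatant. Cox7a1 had 20 counts with IL-3 supernatant and 25 with PBS supernatant. Cox6a2, the heart and muscle form, had 17, 14 and 4 counts in IL-3 replicates 1, 2 and 3, against 1, 1 and 6 in PBS replicates 1, 2 and 3, so the groups overlapped. Scaled for library size the ratio of summed Cox6a2 counts was 3.89, with an exact interval of 1.77 to 9.70 that covers counting error only. With PBS replicate 3 left out, Cox6a2 passed the count filter and the test. Cox6b2, the testis form of subunit 6b, stood at 0.876, 1.94 and 2.30 CPM in IL-3 replicates 1, 2 and 3, against 0.835, 0.665 and 0.912 CPM in PBS replicates 1, 2 and 3. Its groups overlapped because IL-3 replicate 1 lay at the level of the PBS libraries. Cox6b2 had log2 1.08 (SE 0.44, edgeR adjusted p = 0.0745), and without IL-3 replicate 1 it was 1.39 (adjusted p = 0.0324).

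Complex V, the ATP synthase, had 3 calls among 16 subunits, all lower, a share of 18.8% that is close to the 16.1% of all genes called lower. Atp5k, subunit e, which takes part in pairing synthases into dimers (ENSMUSG00000050856, chromosome 5, 108433244 to 108434448), stood at 47.9, 48.8 and 55.1 CPM in IL-3 replicates 1, 2 and 3, against 57.0, 65.2 and 65.1 CPM in PBS replicates 1, 2 and 3. Atp5mpl, a small proteolipid bound to the synthase (ENSMUSG00000021290, chromosome 12, 111961375 to 111966977), stood at 45.4, 47.6 and 44.7 CPM in the IL-3 libraries, against 48.0, 60.2 and 61.1 CPM in the PBS libraries. In both genes the groups did not overlap, and PBS replicate 1 lay nearest to the IL-3 libraries. The log2 fold changes were -0.30 for Atp5k (SE 0.08, edgeR adjusted p = 0.00723) and -0.30 for Atp5mpl (SE 0.09, edgeR adjusted p = 0.017). Atp5mpl lost its call without IL-3 replicate 1 or 3 or PBS replicate 2 or 3 (adjusted p from 0.0678 to 0.0962).

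Atp5g1, Atp5g2 and Atp5g3 encode the same mature subunit c, the ring that turns as protons pass. Atp5g2 (ENSMUSG00000062683, chromosome 15, 102662864 to 102672352) stood at 146, 144 and 142 CPM in IL-3 replicates 1, 2 and 3, against 148, 169 and 172 CPM in PBS replicates 1, 2 and 3. The groups did not overlap, but PBS replicate 1 lay just above IL-3 replicate 1. Its difference of -0.17 on the log2 scale (SE 0.06, edgeR adjusted p = 0.0413) lost its call without any one of the IL-3 libraries or PBS replicate 2 or 3 (adjusted p from 0.0931 to 0.197). Atp5g1 and Atp5g3 had log2 -0.08 and -0.10 (edgeR adjusted p = 0.448 and 0.306). Of the family's TPM, Atp5g3 held 55.6% in both groups, Atp5g2 26.3% ± 0.846 with IL-3 supernatant and 27.6% ± 0.793 with PBS supernatant, and Atp5g1 18.1% ± 0.528 with IL-3 supernatant and 16.8% ± 0.699 with PBS supernatant. The deposited expected counts were whole in every library for Atp5g2 and Atp5g3 and fractional for Atp5g1.

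Atp5a1 and Atp5b encode the alpha and beta subunits of the ATP synthase, which form the catalytic sites of its head, and neither passed. Atp5a1 stood at 1087, 1055 and 1110 CPM in IL-3 replicates 1, 2 and 3, against 1013, 1132 and 1153 CPM in PBS replicates 1, 2 and 3. Atp5b stood at 1777, 1671 and 1794 CPM in the IL-3 libraries, against 1554, 1679 and 1663 CPM in the PBS libraries. In both genes the groups overlapped. The log2 fold change was -0.02 for Atp5a1 (interval -0.14 to 0.10) and 0.10 for Atp5b (interval -0.01 to 0.21, edgeR adjusted p = 0.171). The subunit with the highest difference was Atp5d, the delta subunit of the central stalk, at 0.11 (edgeR adjusted p = 0.282). Factor B (Atp5s), a small protein associated with the synthase, averaged 1.77 ± 0.37 CPM with IL-3 supernatant and 1.55 ± 0.346 CPM with PBS supernatant.

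Summed by complex, the levels of both groups lay close together except in complex II. Complex I came to 4660, 4579 and 4826 summed TPM in IL-3 replicates 1, 2 and 3, against 4507, 4718 and 5054 in PBS replicates 1, 2 and 3. Complex III came to 2416, 2409 and 2543 summed TPM in the IL-3 libraries, against 2238, 2457 and 2639 in the PBS libraries. Complex IV came to 4716, 4683 and 4889 summed TPM in the IL-3 libraries, against 4298, 4640 and 4996 in the PBS libraries. In each of these 3 the PBS libraries spanned the IL-3 libraries, with PBS replicate 1 lowest and PBS replicate 3 highest. Complex V showed the same arrangement, at 7795, 7625 and 8188 summed TPM in the IL-3 libraries and 7350, 7840 and 8409 in the PBS libraries. The means differed by -1.50% in complex I, 0.466% in complex III, 2.54% in complex IV and 0.0360% in complex V. Without PBS replicate 1 they differed by -4.04%, -3.61%, -1.14% and -3.15% in that order, and without PBS replicate 3 by 1.65%, 4.62%, 6.57% and 3.61%. These were the lowest and highest values with one library left out, so the sign of all 4 depended on the libraries. All 95 members together came to 20742 ± 602 TPM with IL-3 supernatant and 20714 ± 1360 TPM with PBS supernatant. In RNA from a whole culture, fewer cells of a type and less RNA per cell cannot be told apart.

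The median log2 fold changes by complex were -0.06 for I, -0.10 for II, 0.01 for III, 0.02 for IV and -0.05 for V. With one library left out they ranged from -0.10 to -0.01 for I, -0.11 to -0.08 for II, -0.06 to 0.04 for III, -0.04 to 0.06 for IV and -0.14 to 0.01 for V, with the lowest values of I, III, IV and V without PBS replicate 1. The median turned negative for complex III without IL-3 replicate 1 or 3 or PBS replicate 1 and for complex IV without PBS replicate 1, and positive for complex V without IL-3 replicate 2 or PBS replicate 3 and on log2(TPM + 1) or log2(TPM + 0.1). With trends on length and GC content removed that of complex III was -0.0007.

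**Figure D5:**
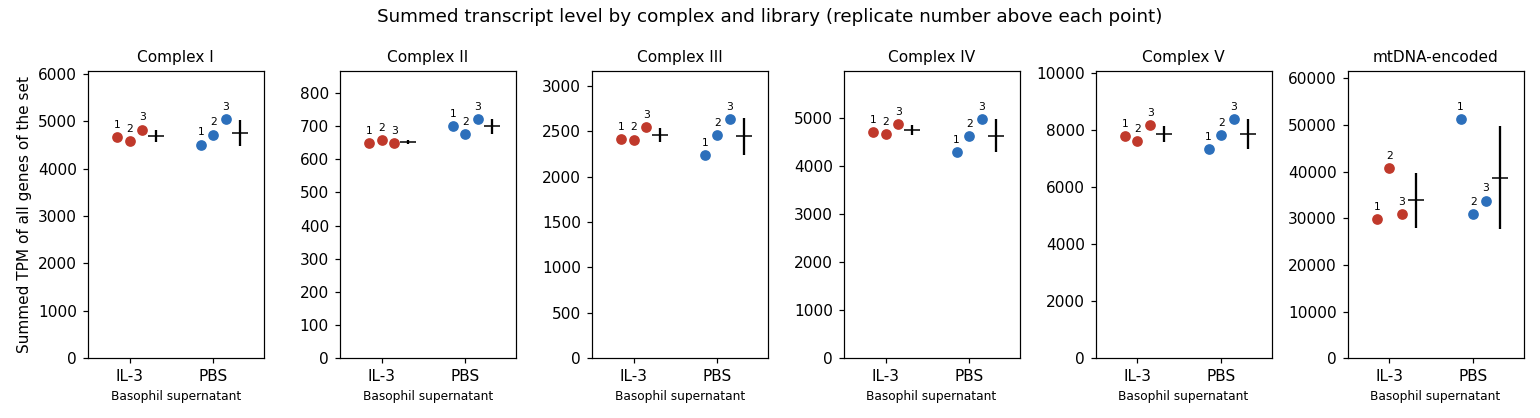
Summed TPM of the nuclear-encoded genes of each complex and of the 13 mitochondrially encoded subunits (y axis, from 0) in each library (points, numbered by replicate), IL-3 supernatant left and PBS supernatant right, with mean and SD (black). The PBS points span the IL-3 points for complexes I, III, IV and V, lie above them for complex II, and hold the highest mitochondrially encoded value in replicate 1.

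Levels differed far more between genes than between groups. Per length, Atp5b was the most abundant member, with a median of 1705 TPM over the 6 libraries and a range of 1615 to 1862 TPM. Next were Atp5a1 (812 to 912 TPM) and Atp5g3 (783 to 951 TPM), which overlapped each other but not Atp5b. Cox4i1 led complex IV at a median of 656 TPM. In complex I the tested subunits ranged from a median of 23.9 TPM (Ndufa11) to 263 TPM (Ndufa12), and in complex III from 208 TPM (Uqcrq) to 439 TPM (Uqcrh). In complex II Sdhb, Sdhd and Sdha lay at 201, 200.1 and 195 TPM, with ranges that overlapped, and Sdhc at 78.3 TPM. The assembly factors were the least abundant group, at medians of 7.76 TPM (Ndufaf3) to 52.6 TPM (Ndufaf2).

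The 13 subunits encoded in the mitochondrial genome, which complete complexes I, III, IV and V, came to 29827, 40688 and 30984 summed TPM in IL-3 replicates 1, 2 and 3, against 51363, 30950 and 33819 in PBS replicates 1, 2 and 3. PBS replicate 1, the lowest library for most nuclear-encoded members, was the highest here. All 13 had log2 fold changes below 0, with a median of -0.23, but 0 passed in edgeR's quasi-likelihood test, 0 had an unadjusted p under 0.05 and 0 passed by DESeq2. That direction did not hold without PBS replicate 1, where 8 of the 13 lay above 0 and the median was 0.02. The mean of the sum differed by -12.6% with all libraries and by 4.47% without PBS replicate 1. By limma-voom 1 passed, mt-Cytb, the cytochrome b of complex III, at log2 -0.31 (limma-voom adjusted p = 0.0405), and with trends on length and GC content removed 3 passed in edgeR, mt-Cytb, mt-Nd1 and mt-Nd5. Without IL-3 replicate 2, mt-Nd4l passed (log2 -0.31, edgeR adjusted p = 0.0107), and without PBS replicate 3, mt-Nd3 (log2 -0.43, edgeR adjusted p = 0.0029). The ratio of summed nuclear-encoded to mitochondrially encoded TPM was 0.688, 0.498 and 0.691 in the IL-3 libraries, against 0.378, 0.666 and 0.654 in the PBS libraries, with overlap.

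Genes that act on the chain from outside it showed a few calls each, and none of these lists had a larger share called than the 30.9% of all genes tested. Of 41 assembly factors without Nduf symbols, 3 were higher and 3 lower (14.6% called). Higher were Sco1 and Cox11, which deliver copper to complex IV, and Tmem70, which helps assemble complex V. Cox11 had log2 0.52 (SE 0.12, edgeR adjusted p = 0.00395) and Sco1 0.34 (SE 0.08, edgeR adjusted p = 0.00225). Lower were Cox17, the copper chaperone that supplies Sco1 and Cox11, at log2 -0.25 (SE 0.07, edgeR adjusted p = 0.00822), Sdhaf1, which inserts iron-sulfur clusters into Sdhb, at -0.27 (SE 0.09, edgeR adjusted p = 0.0337), and Dmac2 at -0.31 (edgeR adjusted p = 0.0476). Calls in this list came to 3 without IL-3 replicate 1 or PBS replicate 3 and 2 without IL-3 replicate 2 or PBS replicate 2. Of all genes, 24.1% to 26.1% were called without IL-3 replicate 1, 2 or 3 or PBS replicate 2 or 3. Without PBS replicate 1 it was 31.6%. These shares apply to the lists below too.

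Regulators of mitochondrial biogenesis and mitochondrial DNA expression had 3 higher and 2 lower of 22 tested (22.7% called). Esrra, a nuclear receptor that activates respiratory chain genes, had log2 0.32 (SE 0.11, edgeR adjusted p = 0.0355), Tfb2m, a mitochondrial transcription factor, 0.23 (edgeR adjusted p = 0.045) and Mterf1a 0.49 (edgeR adjusted p = 0.0447). Mterf1a has a near-identical neighbour gene, so its counts are uncertain. Myc, which drives growth and biogenesis, had log2 -0.22 (SE 0.06, edgeR adjusted p = 0.00876), at 417 ± 26.4 CPM with IL-3 supernatant and 484 ± 23.5 CPM with PBS supernatant. The other lower gene was Gabpb2, a partner of the ETS factor Gabpa, at -0.16 (edgeR adjusted p = 0.0429). Nrf1, Gabpa and Tfam, which activate nuclear respiratory genes or copy and package mitochondrial DNA, had log2 -0.07, -0.03 and -0.07, and none passed. Calls in this list came to 1 without IL-3 replicate 1, IL-3 replicate 2 or PBS replicate 3, to 2 without IL-3 replicate 3 and to 0 without PBS replicate 2, and to 1 by DESeq2.

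The list for the TCA cycle, which supplies NADH and succinate to the chain, also held genes of pyruvate carboxylase and pyruvate dehydrogenase, which feed it. This list had 2 higher and 3 lower of 18 tested (27.8% called). Pcx, pyruvate carboxylase, which makes oxaloacetate from pyruvate, averaged 14.2 ± 0.637 CPM with IL-3 supernatant and 30.04 ± 2.07 CPM with PBS supernatant, the largest difference in the list (log2 -1.08, SE 0.10, edgeR adjusted p = 1.92e-07). Dld, a subunit shared by the pyruvate and 2-oxoglutarate dehydrogenases, had log2 0.33 (SE 0.06, edgeR adjusted p = 0.000591) and Suclg1, of succinyl-CoA ligase, 0.20 (SE 0.06, edgeR adjusted p = 0.0139). Fh1, fumarase, had -0.20 (edgeR adjusted p = 0.0458). Calls in this list came to 3 without IL-3 replicate 1 or 3 or PBS replicate 2 or 3.

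Of 27 protein import genes 2 were higher and 0 lower (7.41% called): Hspa9, the matrix chaperone that pulls proteins in, and Timm44, which anchors it to the import channel. Hspa9 averaged 1319 ± 32.8 CPM with IL-3 supernatant and 1015 ± 10.3 CPM with PBS supernatant (log2 0.38, SE 0.05, edgeR adjusted p = 8.87e-06), and Timm44 had log2 0.24 (SE 0.07, edgeR adjusted p = 0.0145). Calls in the import list came to 1 without IL-3 replicate 1 or PBS replicate 3 and to 4 without PBS replicate 1. Of 11 genes of metabolite transport and shuttles, among them inner membrane carriers, the outer membrane channels Vdac1, Vdac2 and Vdac3 and the enzyme Gpd2, 3 were called (27.3%). The aspartate-glutamate carriers Slc25a12 and Slc25a13 were higher, at log2 0.42 and 0.30 (edgeR adjusted p = 0.000131 and 0.00977), and Ucp2 lower, at -0.16 (edgeR adjusted p = 0.0379). Of 13 genes of coenzyme Q synthesis 1 passed (7.69%), Coq2, at -0.23 (edgeR adjusted p = 0.0402), while the list's median was 0.13. It lost that call without IL-3 replicate 1 or 2 or PBS replicate 2 or 3. Of 78 mitochondrial ribosomal proteins 5 were higher and 5 lower (12.8% called), with a median of 0.00. The 4 with the smallest p were Mrpl1 at log2 0.42 (edgeR adjusted p = 0.000179), Mrpl45 at 0.29 (0.0017), Mrpl23 at 0.92 (0.00316) and Mrpl9 at 0.22 (0.00764), and calls in this list came to 6 without IL-3 replicate 1 and 5 without IL-3 replicate 3.

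Marker genes fit the label of CD8 T cells, with 1703 to 1892 summed TPM over 6 T cell markers in the IL-3 libraries and 2469 to 2606 in the PBS libraries. Of these markers 5 were lower with IL-3 supernatant (83.3%, beside 16.1% of all genes called lower), and Lck did not pass. Their log2 fold changes ran from -1.17 (Cd8a, edgeR adjusted p = 5.72e-11) to -0.35 (Cd3d, edgeR adjusted p = 0.000251). Markers of basophils and mast cells came to 0.127 to 0.986 summed TPM in the IL-3 libraries and 0.194 to 0.279 in the PBS libraries, with 4 of 8 at 0 in every library. The markers of CD4 T, myeloid, NK and erythroid cells lay below 1 TPM in sum in every library, and the 5 B cell markers between 3.98 and 4.89 TPM over all libraries. The part of the lower T cell markers in the results above was not tested.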

How the data were processed

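Per the labels' protocols, poly(A) RNA of 6 CD8 T cell samples was made into libraries with an Illumina TruSeq kit. The submitters' processing notes name RSEM 1.2.12, Bowtie2 2.2.0, edgeR 3.20.9 and GRCm38. The step each served, the annotation and the strand setting were not given in the sources used here. The authors deposited expected counts per gene, which divide a read that fits several genes among them, and TPM, scaled by the authors for length and library. PBS supernatant replicate 2 has isoform TPM, which were added up to genes (99.7% of its TPM could be placed), and the other 5 libraries have gene TPM. Groups and replicate numbers came from the sample titles.

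A reference table gave symbols for 46005 of 46517 identifiers, and GENCODE M21 (GRCm38) gave coordinates and gene types. Expected counts were rounded and tested in R 4.3.3 with edgeR 4.0.16: filterByExpr on the groups, TMM factors, a robust quasi-likelihood fit on group alone, Benjamini-Hochberg adjustment over all 12407 genes kept, threshold 0.05. Each SE came from the F statistic and each 95% interval from the t quantile. CPM use TMM-scaled library sizes, and errors are SDs over 3 libraries. A zero count allows up to 3 counts, and exact binomial intervals at 95% cover counting error only. The scripts were tested on simulated data. Alternatives were other scalings and filters, a replicate block, leaving out 1 library at a time, limma-voom (limma 3.58.1), DESeq2 1.42.0, and limma on log2(TPM + 1) and log2(TPM + 0.1). Fits without CT010467.1, which took 0.433% to 4.51% of a library's counts, and with trends on length and GC content removed were added after seeing the data. Counts of libraries of 1 group differed by more than sampling noise in every pair, and all 6 were kept as separate. Plots were drawn with Python 3.11.15, pandas 2.3.3 and matplotlib 3.10.9.

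Named genes were every called member, the smallest p and the highest and lowest fold change of each complex, a panel of catalytic subunits, all isoform families, members below the filter, and up to 4 called genes of each other list with the smallest p. Other called genes of those lists, where named, were chosen after their values were seen. A few genes under this rule are not reported here. The members and lists were chosen with earlier results of these data known.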

Additional observations from a re-analysis of the deposited data

How the results depend on the processing

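Against 2 members called higher and 8 lower, removing trends on length and GC content gave 4 higher calls (Ndufab1 and Uqcrc2 besides Cycs and Uqcrq), and limma on log2(TPM + 1) without a filter gave 0 higher and 1 lower. The share of all genes called moved too, at 34.6% with the trends removed and 10.0% with limma on unfiltered log2(TPM + 1), against 30.9% in the quasi-likelihood test. Lower calls came to 5 with limma-voom and on log2(TPM + 1) or log2(TPM + 0.1) with the filter, and to 4 by DESeq2, where 30.1%, 24.1%, 23.7% and 16.7% of all genes were called, in that order. With one library left out there were 2 to 3 higher and 2 to 24 lower calls, with 24.1% to 31.6% of all genes called. Deviations from the group means correlated at r = -0.15, 0.05 and 0.26 between same-numbered libraries. Not every library correlated best with its own number. With 3 libraries per group, this check cannot show whether a replicate number marks a shared mouse or day. With the number as a replicate block, lower calls came to 5 (with 27.5% of all genes called), and calls to 1 in the biogenesis list, 3 in the TCA list and 0 in the coenzyme Q list. By DESeq2, calls came to 3 for assembly factors, 1 for biogenesis and 0 for coenzyme Q, and with DESeq2 size factors to 3 for the TCA list. With one library left out, calls came to 2 to 5 for assembly factors, 0 to 4 for biogenesis, 3 to 5 for the TCA list, 0 to 1 for coenzyme Q, 1 to 4 for import, 5 to 14 for ribosomal proteins and 0 to 1 for mitochondrially encoded subunits. The cause of these shifts was not tested, except that leaving out a library leaves fewer samples. Narrow intervals held for 52 to 60 members with one library left out. In 180 values of the 10 called members under the alternatives none changed sign. Ndufv3, Cox7a2l, Atp5k and Cycs kept their call under 17 of 18 alternatives, Uqcrq under 16, Atp5mpl under 12, Ndufaf6 under 10, Ndufaf3 under 9, Atp5g2 under 6 and Sdhb under 5. Depth limits the minor isoforms, where 3 counts are 0.135 to 0.173 CPM.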
